A study of Homo sapiens with 18 samples.

Results

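The integrin and laminin genes of SJSA cells were followed across 6 drug conditions. The members were the rows of the deposited expression tables with the symbols ITGA1 to ITGA11, ITGA2B, ITGAD, ITGAE, ITGAL, ITGAM, ITGAV, ITGAX and ITGB1 to ITGB8, and those of the laminin chain genes named LAMA, LAMB or LAMC with a digit, which gave 38 genes of 23368. Of these, 37 are reported (26 integrin and 11 laminin genes), and all counts below are over these 37. The rule used gene symbols only and no measured value, although it was set with earlier results of these data known. RNA of this human osteosarcoma line, which carries amplified MDM2 and CDK4 genes, was sequenced in 18 libraries, 3 per group. The DMSO group received solvent and no drug. The Nutlin group received Nutlin, an antagonist of the MDM2 and p53 interaction, at 20 µM for the last 6 h. PD0332991 (Palbociclib), an inhibitor of the kinases CDK4 and CDK6, was given at 10 µM, either throughout 30 h (PD30) or for the first 24 h followed by its removal (PD24). N+PD30 and N+PD24 combined these schedules with Nutlin at 20 µM for the last 6 h. All groups are 1 cell line, and the study calls its replicates biological, whereas the labels do not say whether they were separate cultures. If they were not, the tests measure the spread between these libraries, which may be technical.

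Library totals ranged from 12704845 to 40231041 counts, with a median of 29608936, and the shallowest library belonged to N+PD30. Levels are given as CPM, the counts per 1000000 counts of a library. The treatments were visible in control genes: CDKN1A, the p53 target encoding p21, averaged 184 CPM in DMSO and 3984 CPM in Nutlin, and CCNA2, which encodes cyclin A2, averaged 216 CPM in DMSO and 4.51 CPM in PD30. The cells carried mesenchymal and bone lineage transcripts, with COL1A1 at 1728 CPM, SPARC at 1430 CPM and RUNX2 at 30.2 CPM on average in DMSO. In DMSO the epithelial markers EPCAM (0.671 CPM) and CDH1 (0.415 CPM) and the leukocyte marker PTPRC (0.0779 CPM) were low, and CD3E was listed at 0 in all DMSO libraries. CD14, the other leukocyte marker followed, averaged 9.11 CPM in DMSO, with libraries from 4.49 to 14.9 CPM.

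Integrins are transmembrane receptors made of an alpha and a beta chain that tie the cytoskeleton to the extracellular matrix or to other cells, and the alpha chain largely sets the ligand. Laminins are basement membrane proteins made of an alpha, a beta and a gamma chain, and LAMA3 and LAMB3 encode chains of the epithelial laminin that anchors keratinocytes through ITGA3 with ITGB1 and ITGA6 with ITGB4. In connective tissue and bone cells the ITGB1 receptors for collagen and fibronectin and the ITGAV receptors for RGD-containing ligands such as vitronectin and osteopontin predominate, whereas the ITGB2 and ITGB7 receptors are known from leukocytes.

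Promoter sequences are shown for 4 members whose levels carry the results: LAMB3 and ITGA2, which differed by whether PD0332991 had been removed, ITGA5, which was higher after both PD0332991 schedules, and ITGB7, a chain raised by Nutlin. The sequences are from RefSeq (GRCh38.p14, human) and run from 250 bases before to 50 bases after the transcript start. RefSeq promoters were matched by symbol for 26 of the 37 members (33 sequences). The members ITGA3, ITGA7, ITGA9, ITGAD, ITGAL, ITGAX, ITGB2, ITGB3, ITGB4, LAMA1 and LAMC3 were not matched. Capitals mark TGANTCA, the core motif bound by AP-1 factors, which reads the same on both strands and was the only motif searched.
LAMB3, chr1:209651325-209651624, minus strand: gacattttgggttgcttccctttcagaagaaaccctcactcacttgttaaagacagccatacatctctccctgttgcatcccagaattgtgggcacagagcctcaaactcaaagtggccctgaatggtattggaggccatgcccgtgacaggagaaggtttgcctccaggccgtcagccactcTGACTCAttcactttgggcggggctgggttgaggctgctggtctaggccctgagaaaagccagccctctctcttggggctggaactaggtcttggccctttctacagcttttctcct
ITGA5, chr12:54419217-54419516, minus strand: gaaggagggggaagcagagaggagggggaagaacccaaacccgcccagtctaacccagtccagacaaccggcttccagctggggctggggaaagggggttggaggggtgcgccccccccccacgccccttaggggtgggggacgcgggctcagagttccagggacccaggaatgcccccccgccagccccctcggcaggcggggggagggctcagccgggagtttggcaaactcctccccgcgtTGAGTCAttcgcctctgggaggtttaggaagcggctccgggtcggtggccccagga
ITGA2, chr5:52989102-52989401, plus strand: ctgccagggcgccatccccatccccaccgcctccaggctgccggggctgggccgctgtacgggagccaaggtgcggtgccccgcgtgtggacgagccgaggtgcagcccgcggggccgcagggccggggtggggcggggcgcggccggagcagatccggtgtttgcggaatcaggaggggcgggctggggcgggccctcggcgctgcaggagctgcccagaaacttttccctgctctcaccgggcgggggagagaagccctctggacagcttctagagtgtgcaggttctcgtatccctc
ITGB7, chr12:53207202-53207501, minus strand: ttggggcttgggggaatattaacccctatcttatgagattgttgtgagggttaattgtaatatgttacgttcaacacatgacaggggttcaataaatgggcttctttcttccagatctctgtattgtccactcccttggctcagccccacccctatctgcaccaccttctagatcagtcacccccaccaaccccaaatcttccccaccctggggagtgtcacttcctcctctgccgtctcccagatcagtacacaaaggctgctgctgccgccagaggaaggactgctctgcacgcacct
The motif started 67 bases before the LAMB3 start and 6 bases before the ITGA5 start, and these letters are not in the windows of ITGA2 and ITGB7. LAMB3 has 3 listed starts, and the one whose window holds the motif is shown. Across the members 3 of 33 windows held the motif (ITGA5, LAMA3 and LAMB3), and 2707 of all 35116 windows (7.71%) did.

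In DMSO the chains spanned a wide range of levels. Per kilobase of exon (GENCODE, GRCh37), ITGB1, the beta chain shared by the collagen, fibronectin and laminin receptors, had the highest level with 174 CPM per kilobase. ITGB3, LAMC1 and ITGA3 followed with 85.3, 83.1 and 80.8 CPM per kilobase, and their libraries overlapped. ITGA6, ITGB5, ITGA5 and ITGAV lay at 51.8, 35.4, 29.9 and 28.4 CPM per kilobase. LAMB2 and LAMB1 were near each other at 23.8 and 23.6 CPM per kilobase, again with overlapping libraries. At the low end, LAMC3, ITGAD, ITGAL, ITGAM, LAMB4, ITGB7 and ITGB6 were under 0.1 CPM per kilobase. Of the 37 members, 35 averaged at least 1 CPM in 1 or more groups. The exceptions were ITGB6, with a highest group mean of 0.702 CPM, and LAMB4, with a highest group mean of 0.6215 CPM, both in N+PD24.

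**Figure D1:**
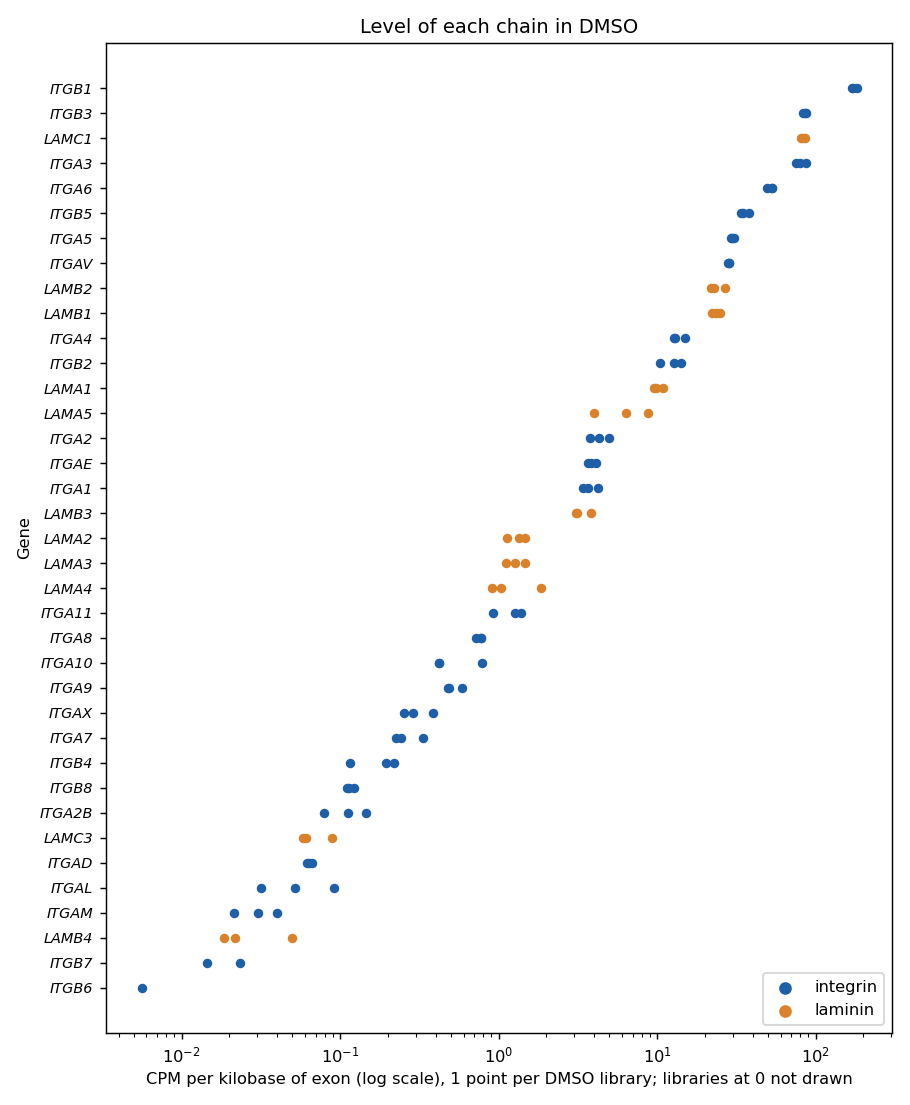
Level of each of the 37 chains in the DMSO libraries, in CPM per kilobase of exon on a log axis, 1 point per library. Integrin genes are blue and laminin genes orange. ITGB1 stands highest at 174 CPM per kilobase on average, and LAMC3, the leukocyte chains ITGAD, ITGAL and ITGAM and the chains LAMB4, ITGB7 and ITGB6 stand at the low end, under 0.1 CPM per kilobase.

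Nutlin raised more of these genes than it lowered. The first comparison asked how Nutlin alone changed the chains. In Nutlin against DMSO, 36 members were tested and 8 passed both thresholds upwards, meaning an adjusted p under 0.05 (edgeR quasi-likelihood test, Benjamini-Hochberg over all genes) and a log2 fold change beyond 1. None passed both downwards. Of all tested genes 12.4% passed both thresholds upwards and 8.42% downwards. With the adjusted p alone, 22 members were higher and 1 was lower, beside 26.6% and 28.0% of all genes. The median log2 fold change of the members was 0.46, against 0.028 over all genes tested. ITGAD, ITGAM and ITGB7 passed the filter on low counts only through the Nutlin libraries, so their calls add nothing to the count as support.

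Among the laminin chains, the gamma chain LAMC3 rose past both thresholds. It had 0.545, 0.798 and 0.517 CPM in DMSO and 1.11, 2.10 and 1.88 CPM in Nutlin, a log2 fold change of 1.58 (SE 0.31, edgeR adjusted p = 0.00187). LAMC1, the gamma chain of most laminins, rose from 678 to 728 CPM in DMSO to 832 to 965 CPM in Nutlin (log2 fold change 0.47). Of the epithelial chains, LAMA3 rose by a log2 fold change of 0.65 without overlap, whereas LAMB3 (14.3, 14.4 and 17.8 CPM in DMSO, 11.4, 13.99 and 25.1 CPM in Nutlin) overlapped between the groups and did not pass the test (edgeR adjusted p = 0.433). Of the laminin alpha chains 4 of 5 passed the adjusted p, all upwards with log2 fold changes between 0.35 (LAMA1) and 0.83 (LAMA5), and none of the 4 beta chains did. Of 11 other settings, the adjusted p was lost in 7 for LAMA5, in 5 for LAMA2 and in 2 for LAMA1, and LAMA3 kept it in all 11.

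Of the 5 alpha chains of leukocyte integrins, 4 rose past both thresholds from low levels, beside 12.4% of all genes. ITGAM and ITGAD passed the filter on low counts only through the Nutlin libraries, so their calls add nothing to this count as support. ITGAM, the alpha chain of the complement receptor of myeloid cells, measured 0.121, 0.173 and 0.226 CPM in DMSO and 1.90, 2.43 and 3.02 CPM in Nutlin, a log2 fold change of 3.91 (SE 0.32, edgeR adjusted p = 9.45e-06). ITGAD, a related ITGB2 partner, measured 0.273, 0.277 and 0.291 CPM in DMSO and 2.26, 2.50 and 3.13 CPM in Nutlin (log2 fold change 3.33, SE 0.25). The groups did not overlap for either gene. ITGAX (1.79, 2.05 and 2.72 CPM in DMSO; 5.37, 4.93 and 7.22 CPM in Nutlin) and ITGAL (0.515, 0.312 and 0.905 CPM in DMSO; 1.38, 2.16 and 1.62 CPM in Nutlin) rose by log2 fold changes of 1.54 and 1.69. ITGAM, ITGAX and ITGAD lie next to each other in this order on chromosome 16 (GRCh37, chr16:31271288-31437826), all on the same strand and with gaps of 22.2 and 10.3 kb. ITGAE, the alpha chain that binds E-cadherin on epithelial cells, was the exception with 24.3 to 27.2 CPM in DMSO and 20.2 to 25.6 CPM in Nutlin (edgeR adjusted p = 0.659). ITGB2, the common partner of ITGAD, ITGAL, ITGAM and ITGAX, rose from 102.8, 93.9 and 75.7 CPM to 125.1, 179.8 and 182.0 CPM (log2 fold change 0.96, edgeR adjusted p = 0.000596). Beside these rises, the leukocyte marker PTPRC averaged 0.0779 CPM in DMSO and 0.2796 CPM in Nutlin, CD14 averaged 9.11 and 9.43 CPM, and CD3E 0 and 0.0111 CPM. Among the markers of other lineages, the endothelial PECAM1 averaged 0.7355 CPM in DMSO and 1.84 CPM in Nutlin. The epithelial CDH1 averaged 0.415 and 1.21 CPM, and EPCAM 0.671 and 0.784 CPM. The part of these markers in the result was not tested. All libraries came from SJSA cells, and more cells with a transcript and more of it per cell cannot be told apart in bulk RNA.

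ITGB7, the partner of ITGA4 and ITGAE on lymphocytes, had 0, 3 and 2 counts in the DMSO libraries and 55, 38 and 63 counts in the Nutlin libraries. These correspond to 0, 0.104 and 0.0647 CPM and to 1.80, 1.27 and 2.32 CPM. The ratio of the summed counts, scaled to the library totals, was 33.0, with an exact 95% interval from 13.9 to 103.1 that covers counting error only, and the fitted log2 fold change was 5.06 (SE 0.52, edgeR adjusted p = 3.46e-05). ITGB7 shares 42.3% of its exon bases with ZNF740 on the opposite strand. ZNF740 moved the other way, from a mean of 31.9 CPM in DMSO to 11.9 CPM in Nutlin (log2 fold change -1.30, SE 0.13).

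The platelet integrin chain ITGA2B rose from 0.636, 0.832 and 0.453 CPM to 1.84, 2.26 and 4.20 CPM (log2 fold change 2.22, SE 0.35, edgeR adjusted p = 0.000496). ITGB4, the hemidesmosome chain that pairs with ITGA6, rose from 1.48, 1.32 and 0.776 CPM to 2.98, 5.86 and 6.01 CPM (log2 fold change 2.17, SE 0.32, edgeR adjusted p = 0.000311). All Nutlin libraries were above all DMSO libraries for both. ITGA9 was higher by 0.64 on the log2 scale and ITGA4 by 0.26, with overlapping libraries and an adjusted p that was lost in 7 of 11 other settings. All 3 laminin-binding alpha chains were higher past the adjusted p: ITGA7 by 0.97, ITGA3 by 0.73 and ITGA6 by 0.42 on the log2 scale. Among the collagen-binding alpha chains, ITGA2 rose from 29.7, 34.1 and 39.0 CPM to 64.1, 47.8 and 59.3 CPM (log2 fold change 0.86), and ITGA1, ITGA10 and ITGA11 overlapped between the groups and did not pass. ITGB1 rose by 0.45 on the log2 scale from 2459, 2505 and 2642 CPM to 3483, 3203 and 2841 CPM. ITGB8, an ITGAV partner, was the only chain to fall past the adjusted p, from 1.66 to 1.84 CPM in DMSO to 0.884 to 1.25 CPM in Nutlin (log2 fold change -0.58, edgeR adjusted p = 0.0485). Its call was lost in 8 of 11 other settings, the leaving out of each DMSO library among them, with adjusted p values up to 0.166 (edgeR or DESeq2).

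**Figure D2:**
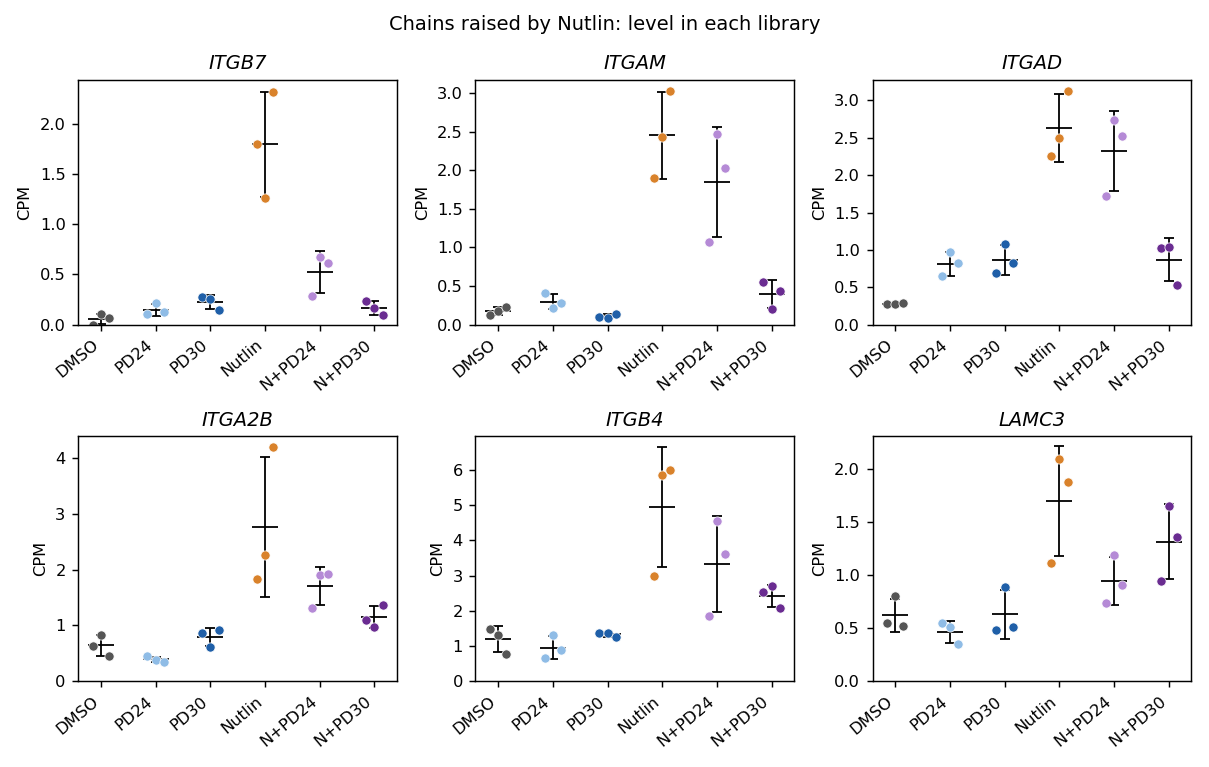
Level in CPM of 6 chains raised by Nutlin, in each of the 6 groups on the horizontal axis. Points are libraries, the bar is the mean and the error bar the SD (n = 3). In N+PD30 ITGAM lies between 0.202 and 0.551 CPM, below all Nutlin libraries, and in N+PD24 between 1.07 and 2.46 CPM.

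PD0332991 alone gave a mixed set of changes, with some chains higher and others lower. The comparisons of PD30 and of PD24 with DMSO share their DMSO libraries, so their values are given side by side. In PD30, 33 members were tested, and 2 were higher and 3 lower past both thresholds (all genes: 5.76% and 9.48%), or 9 and 5 with the adjusted p alone (all genes: 22.9% and 25.4%). In PD24, 33 were tested, and 3 were higher and 4 lower past both (all genes: 4.61% and 7.96%), or 9 and 5 with the adjusted p alone (all genes: 17.5% and 20.8%). ITGAD, among the higher members in both, passed the filter on low counts only through the treated libraries. Its calls add nothing to these counts as support. Each median, 0.14 in PD30 and -0.0038 in PD24, lay near 0, as did the medians over all genes, 0.0020 and 0.024.

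The chains lowered under PD0332991 included ITGA4 and ITGA9, alpha chains that bind VCAM1. ITGA9, which also binds tenascin and osteopontin, measured 3.9995, 4.89 and 3.94 CPM in DMSO, 0.896, 1.86 and 1.53 CPM in PD30, and 0.883, 0.675 and 1.39 CPM in PD24. The log2 fold change was -1.57 (SE 0.25, edgeR adjusted p = 0.000751) in PD30 and -2.06 (SE 0.26, edgeR adjusted p = 0.000353) in PD24. ITGA4, found on migrating mesenchymal cells and lymphocytes, measured 138.9, 135.5 and 159.9 CPM in DMSO, 76.5, 60.2 and 88.6 CPM in PD30, and 74.5, 54.8 and 71.5 CPM in PD24. Its log2 fold change was -0.96 (SE 0.13) in PD30 and -1.09 (SE 0.12) in PD24. ITGA8, an RGD-binding chain of mesenchymal cells, measured 5.24, 5.69 and 5.69 CPM in DMSO, 1.83, 1.45 and 2.30 CPM in PD30, and 2.10, 2.02 and 2.34 CPM in PD24 (log2 fold changes -1.59 and -1.33). No PD30 or PD24 library reached a DMSO library for these 3 genes. ITGA1, a collagen-binding chain, was lower in PD30 (log2 fold change -0.30), a call lost in 6 of 11 other settings, and ITGB8 was lower in PD24 (-0.93), a call lost in 5 of 11. ITGA10, a collagen-binding chain of cartilage, fell in PD24 (-1.08, SE 0.33, edgeR adjusted p = 0.0299), a call lost in 3 of 11 other settings. ITGA4 shares 26.4% of its exon bases with CERKL on the opposite strand, which averaged 4.36 CPM in DMSO, and ITGA9 shares 9.23% with its antisense gene ITGA9-AS1. VCAM1, a ligand of ITGA4 and ITGA9 on other cells, was also lower in PD30, with means of 8.37 CPM in DMSO and 2.53 CPM in PD30 (log2 fold change -1.75, edgeR adjusted p = 0.00404).

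The chains raised under PD0332991 included ITGAX, which rose in both schedules. It measured 10.3, 8.59 and 10.9 CPM in PD30 and 5.06, 5.56 and 7.78 CPM in PD24, against 1.79 to 2.72 CPM in DMSO. The log2 fold change was 2.17 (SE 0.18, edgeR adjusted p = 1.31e-05) in PD30 and 1.52 (SE 0.23, edgeR adjusted p = 0.000937) in PD24. ITGAD rose as well, to 0.689, 1.08 and 0.823 CPM in PD30 and 0.645, 0.970 and 0.820 CPM in PD24 (log2 fold changes 1.61 and 1.53), and here too it passed the filter on low counts only through the treated libraries. ITGB2 was higher in PD30 and in PD24 by 0.81 and 0.63 on the log2 scale. The fibronectin receptor chain ITGA5 went from 216.5, 219.9 and 227.0 CPM in DMSO to 375.6, 333.9 and 315.3 CPM in PD30 and to 377.5, 404.7 and 402.1 CPM in PD24 (log2 fold changes 0.61 and 0.86). ITGA3 rose by 0.74 and 0.81, LAMB2 by 0.88 and 0.53, and LAMA1 by 0.57 and 0.42 on the log2 scale. LAMA3 (0.66) and LAMC1 (0.35) passed the adjusted p in PD30, whereas in PD24 their adjusted p values were 0.963 and 0.0585 (edgeR). The direct comparison of PD30 with PD24 gave LAMA3 a log2 fold change of 0.67 (edgeR adjusted p = 0.0395, lost in 5 of 11 other settings) and LAMC1 one of 0.14 (edgeR adjusted p = 0.266).

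**Figure D3:**
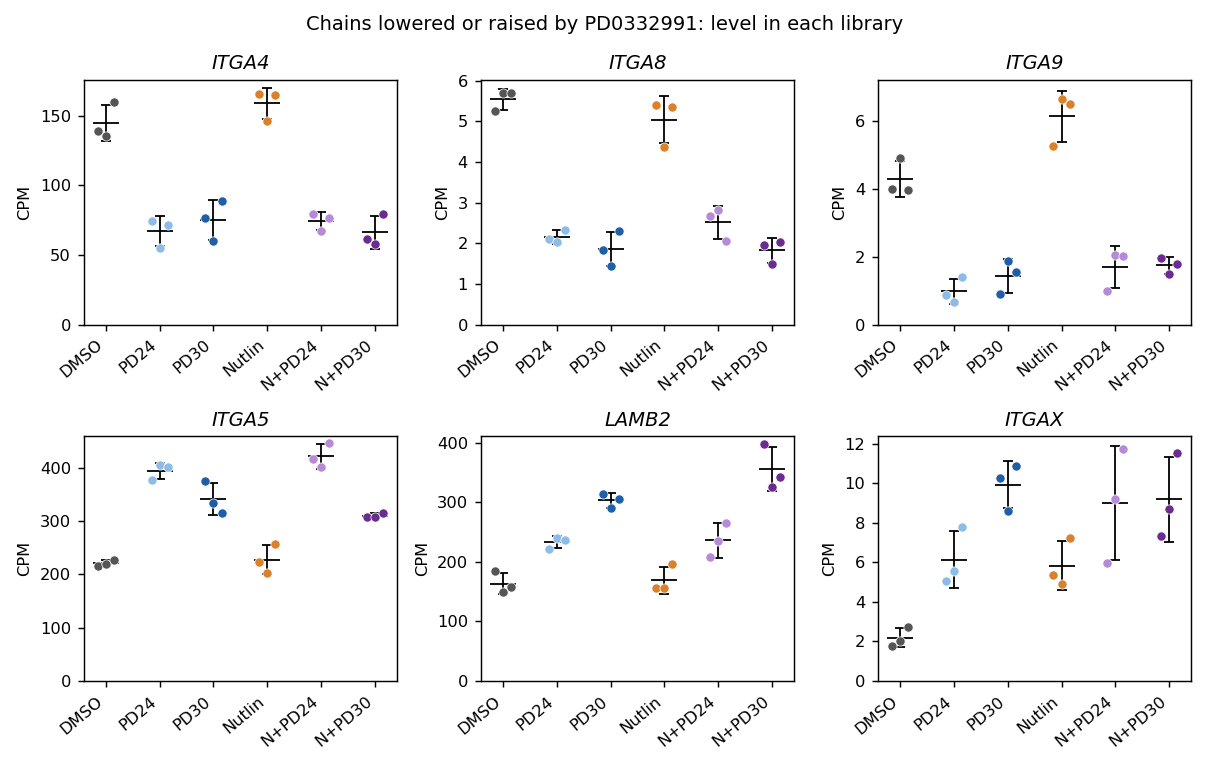
Level in CPM of 6 chains that PD0332991 lowered (ITGA4, ITGA8, ITGA9) or raised (ITGA5, LAMB2, ITGAX), in each of the 6 groups. Points are libraries, the bar is the mean and the error bar the SD (n = 3). ITGA4 stays at or below 88.6 CPM in all 4 groups that received PD0332991 and at or above 135.5 CPM in DMSO and Nutlin.

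Removal of PD0332991 after 24 h was compared with its continued presence. In PD30 against PD24, 33 members were tested and 2 passed both thresholds, both lower in PD30, beside 7.49% of all genes in either direction. With the adjusted p alone 7 passed, beside 25.2% of all genes. With the replicate number as a block 3 passed both thresholds and 10 the adjusted p alone, ITGB1, ITGA5 and LAMA2 being gained, beside 8.08% and 40.3% of all genes under the same block. ITGA2, the collagen receptor chain of epithelial cells and platelets, measured 15.9, 15.5 and 18.9 CPM in PD30 and 59.2, 35.5 and 51.8 CPM in PD24, beside 29.7, 34.1 and 39.0 CPM in DMSO. The log2 fold change was -1.58 (SE 0.18, edgeR adjusted p = 0.000611). Against DMSO, ITGA2 fell in PD30 (log2 fold change -1.05, SE 0.13, edgeR adjusted p = 0.00014), and its PD24 libraries overlapped those of DMSO with a log2 fold change of 0.53 that lost the adjusted p in 5 of 11 other settings (edgeR adjusted p = 0.0423). LAMB3 measured 14.7, 13.0 and 15.1 CPM in PD30 and 30.9, 38.2 and 31.3 CPM in PD24 (log2 fold change -1.27, SE 0.14, edgeR adjusted p = 0.00056). The PD24 libraries were above all DMSO libraries, which had 14.3, 14.4 and 17.8 CPM, whereas PD30 overlapped with DMSO. ITGA2B (0.99), ITGAX (0.65) and LAMB2 (0.34) were higher in PD30 and ITGB5 (-0.28) lower past the adjusted p alone. ITGA4, ITGA8 and ITGA9 did not pass the test of this difference, with log2 fold changes of 0.13 (SE 0.15), -0.26 (SE 0.22) and 0.49 (SE 0.34).

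**Figure D4:**
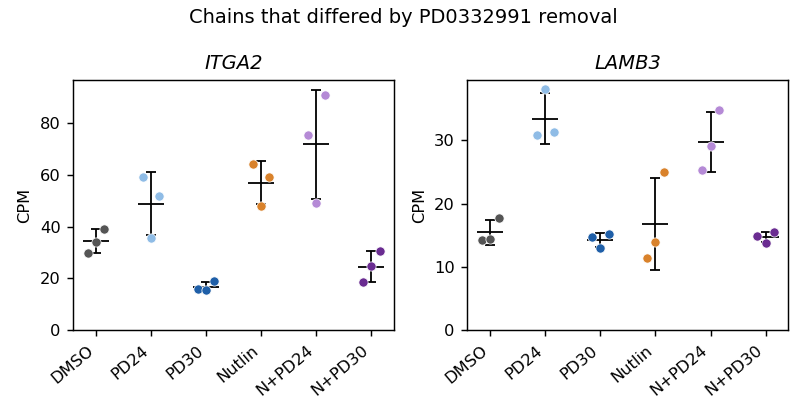
Level in CPM of 2 chains that differed by whether PD0332991 had been removed, in each of the 6 groups. Points are libraries, the bar is the mean and the error bar the SD (n = 3). ITGA2 and LAMB3 are higher in PD24 than in PD30 and higher in N+PD24 than in N+PD30, where ITGA2 has 49.1 to 90.8 CPM against 18.5 to 30.4 CPM.

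With continued PD0332991, ITGB7, ITGAM and ITGAD were lower than with Nutlin alone, and ITGAX and ITGB2 were higher. In N+PD30 against Nutlin, 35 members were tested, and 10 were lower and 1 higher past both thresholds, beside 13.9% and 8.43% of all genes. With the adjusted p alone 13 were lower and 5 higher, beside 24.7% and 24.3% of all genes. The Nutlin libraries are shared with the comparison of Nutlin with DMSO, so each comparison is given by its own values. ITGAM measured 0.551, 0.202 and 0.436 CPM (log2 fold change -2.79, SE 0.37, edgeR adjusted p = 0.000141) and ITGAD 1.02, 1.04 and 0.533 CPM (log2 fold change -1.63, SE 0.30, edgeR adjusted p = 0.00116). ITGB7 had 3, 5 and 2 counts, or 0.236, 0.168 and 0.0968 CPM, and a log2 fold change of -3.49 (SE 0.41, edgeR adjusted p = 7.16e-05). ITGB7 passed the filter on low counts only through the Nutlin libraries. Its overlapping gene ZNF740 averaged 11.9 CPM in Nutlin and 25.9 CPM in N+PD30 (log2 fold change 1.08). ITGAM reached the level of the filter in all Nutlin libraries but not in all N+PD30 libraries. The calls of ITGB7 and ITGAM therefore add nothing to the count as support. ITGA2B (-1.31), ITGB4 (-1.06) and ITGAL (-1.02) also fell, and ITGAL overlapped between the groups and lost its adjusted p in 4 of 11 other settings. Of the chains that were lower in PD30 or PD24 than in DMSO, 5 were lower here too, with log2 fold changes of -1.87 for ITGA9, -1.52 for ITGA8, -1.31 for ITGA4, -1.26 for ITGA2 and -0.60 for ITGA1. The others, ITGA10 (-0.60) and ITGB8 (-0.08), did not pass (edgeR adjusted p = 0.16 and 0.853). LAMB2, a laminin chain of muscle and kidney basement membranes, was the 1 chain raised past both thresholds, from 156.1, 155.6 and 195.8 CPM in Nutlin to 398.1, 326.5 and 342.9 CPM in N+PD30 (log2 fold change 1.04, SE 0.14, edgeR adjusted p = 0.000154). Past the adjusted p alone, ITGAX (0.62), ITGA3 (0.62), ITGB2 (0.51) and ITGA5 (0.41) were higher on the log2 scale. ITGAX averaged 5.84 CPM in Nutlin and 9.18 CPM in N+PD30, and ITGB2 162.3 and 236.2 CPM. The leukocyte marker PTPRC and the endothelial marker PECAM1 averaged 0.2796 and 1.84 CPM in Nutlin and 0.0385 and 0.9031 CPM in N+PD30. The leukocyte marker CD14 averaged 9.43 CPM in Nutlin and 8.29 CPM in N+PD30, with overlapping libraries. The part of these markers in the result was not tested.

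Whether the response to Nutlin itself differed with PD30 was tested as an interaction, the difference between N+PD30 against PD30 and Nutlin against DMSO. Of 36 members tested, 5 passed both thresholds, all with a smaller response in the presence of PD0332991, beside 10.2% of all genes in either direction, and 6 passed the adjusted p alone, beside 19.8%. The count was 3 without DMSO library 1, Nutlin library 3, PD30 library 1 or 3, or N+PD30 library 2. ITGB7 had an interaction of -5.38 on the log2 scale (SE 0.81, edgeR adjusted p = 0.000687) and ITGAD of -3.20 (SE 0.42, edgeR adjusted p = 0.000342). Of the 4 groups, ITGB7 reached the level of the filter on low counts in Nutlin alone, and ITGAM in all Nutlin libraries and 2 N+PD30 libraries, so their calls add nothing to the count as support. For ITGAD the PD30 libraries (0.689, 1.08 and 0.823 CPM) and the N+PD30 libraries (1.02, 1.04 and 0.533 CPM) overlapped. ITGAX had an interaction of -1.51 (SE 0.28), with 8.59 to 10.9 CPM in PD30 and 7.32 to 11.5 CPM in N+PD30. ITGAM (-2.11, SE 0.66) and ITGA2B (-1.56, SE 0.48) passed with edgeR adjusted p values of 0.0401 and 0.0348. ITGA6 passed the adjusted p alone (-0.47). For ITGB4 and LAMA3 the interactions of -1.15 (SE 0.41) and -0.68 (SE 0.25) did not pass (edgeR adjusted p = 0.066 and 0.0754). For ITGA4, ITGA8 and ITGA9 they were -0.30, 0.10 and -0.26, none past the test.

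After removal of PD0332991, ITGAM and ITGAD stood at levels that overlapped with Nutlin alone. In N+PD24 against Nutlin, tested with limma because N+PD24 was deposited as a normalised signal, 1 of 37 members was higher and 4 were lower past both thresholds, beside 4.10% and 7.84% of all genes. With the adjusted p alone 6 were higher and 5 lower, beside 14.9% and 18.6%. Same-numbered libraries deviated together in these groups, and with the replicate number as a block 5 members passed both thresholds and 23 the adjusted p alone, beside 12.3% and 52.2% of all genes under the same block. ITGAM (1.07, 2.46 and 2.02 CPM; -0.41, SE 0.29) and ITGAD (1.72, 2.73 and 2.53 CPM; -0.15, SE 0.22) overlapped the Nutlin libraries and did not pass (limma adjusted p = 0.31 and 0.629). ITGB7, by contrast, was lower with 0.287, 0.677 and 0.614 CPM (log2 fold change -1.60, SE 0.32, limma adjusted p = 0.0035), and the overlapping gene ZNF740 was lower as well, at a mean of 6.56 CPM in N+PD24 (log2 fold change -0.81). ITGA9 (-1.83), ITGA4 (-1.07) and ITGA8 (-0.95) were lower than in Nutlin, and ITGA5 and LAMB3 were higher, each by 0.92. LAMA5, a chain of epithelial and vascular basement membranes, was lower by -1.26 (limma adjusted p = 0.0179), with widely spread libraries of 31.8, 69.8 and 84.1 CPM in N+PD24 and 90.1, 199.4 and 153.0 CPM in Nutlin, and without the second Nutlin library its adjusted p was 0.0748 (limma). ITGB6, an epithelial ITGAV partner that was singled out after its values were seen, had 21, 26 and 15 counts in N+PD24 against 5, 1 and 3 counts in Nutlin (log2 fold change 2.05, SE 0.35, limma adjusted p = 0.00164). It was the 1 member higher past both thresholds, and it passed the filter on low values only through the N+PD24 libraries. Its call therefore adds nothing to the count as support. At a pseudocount of 1 CPM in place of 0.1 CPM the count of calls was 3 instead of 5. It was also 3 without N+PD24 library 2.

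The combination with continued PD0332991 and the one with its removal were also compared directly, a comparison added after the data were seen. In N+PD30 against N+PD24, 8 of 37 members passed both thresholds, 7 of them lower in N+PD30, beside 13.3% of all genes in either direction, and 14 passed the adjusted p alone, beside 31.7%. ITGA2 measured 18.5, 24.6 and 30.4 CPM in N+PD30 and 75.5, 49.1 and 90.8 CPM in N+PD24 (log2 fold change -1.63, SE 0.23, limma adjusted p = 0.000884). LAMB3 measured 14.8, 13.8 and 15.5 CPM in N+PD30 and 25.3, 29.2 and 34.8 CPM in N+PD24 (log2 fold change -1.10, SE 0.15, limma adjusted p = 0.00065). ITGAM (-2.06) and ITGAD (-1.45) were lower in N+PD30 without overlap. ITGB6, with 0, 1 and 1 counts in N+PD30, was lower by -2.71, and LAMB4 by -1.72. ITGB7 (-1.26) and LAMA5 (1.08) passed with limma adjusted p values of 0.0309 and 0.0313, lost in 3 of 6 and 4 of 11 other settings. ITGB6, LAMB4 and ITGB7 passed the filter on low values only through the N+PD24 libraries, so their calls add nothing to the count as support. The same holds for ITGAM, which reached the level of the filter in all N+PD24 libraries but not in all N+PD30 libraries. Without N+PD24 library 1, 2 or 3 the count was 5, 5 or 4. ITGA4 and ITGA9 overlapped between both combinations, with log2 fold changes of -0.27 (SE 0.14) and 0.01 (SE 0.30).

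**Figure D5:**
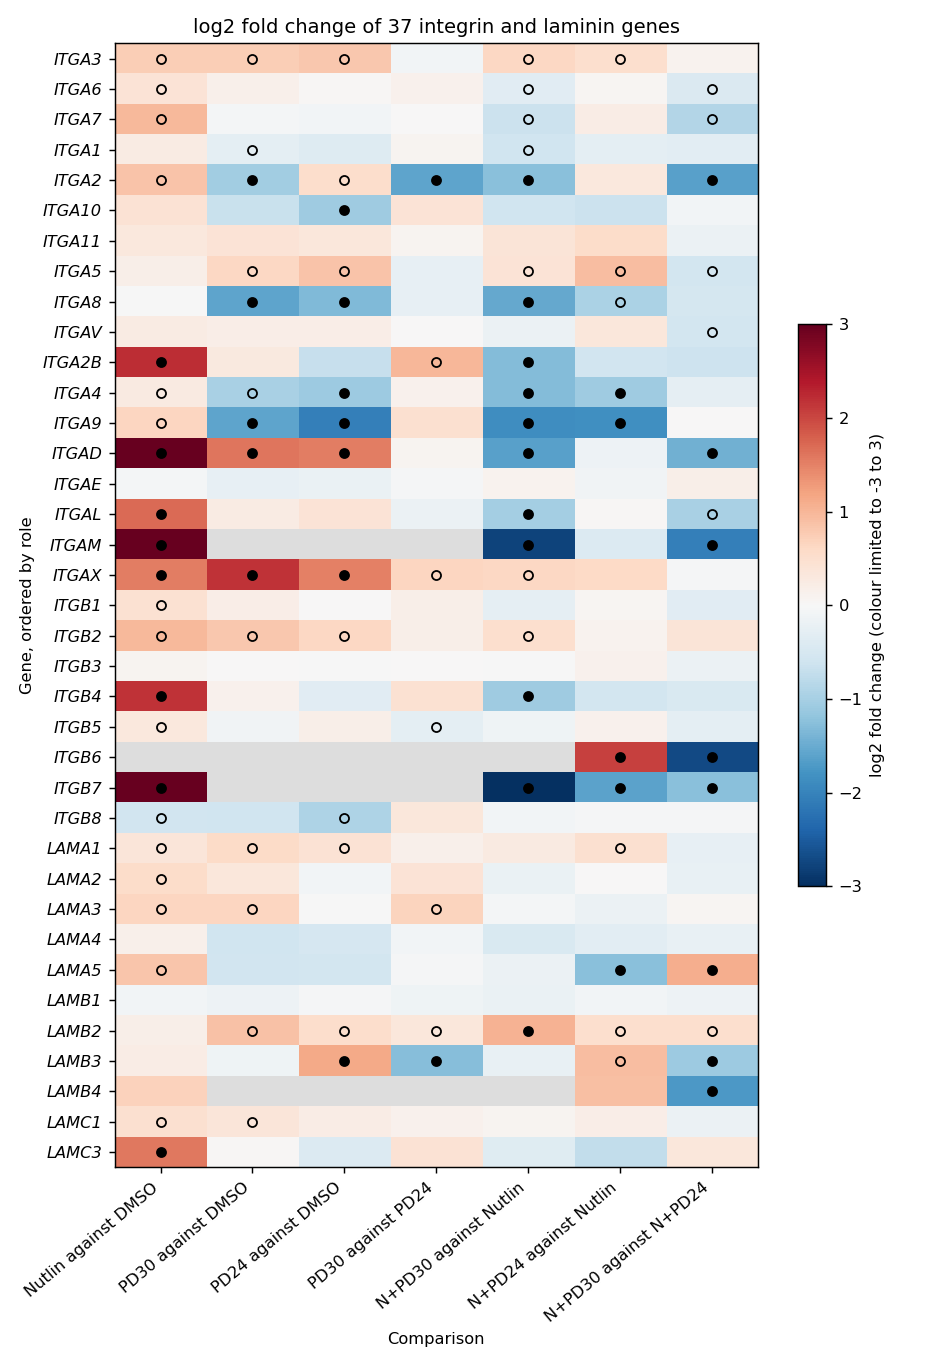
log2 fold change of the 37 chains (vertical axis, ordered by role) in 7 comparisons (horizontal axis). Filled circles mark an adjusted p under 0.05 with a log2 fold change beyond 1, open circles an adjusted p under 0.05 alone, and grey cells were not tested. The Nutlin column holds 8 filled circles, all upwards, and the column of N+PD30 against Nutlin holds 10 downwards and 1 upwards.

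A few chains passed the test in none of the 7 comparisons when fitted without the replicate block. ITGB3, the vitronectin receptor chain, kept between 532.0 and 641.0 CPM over all 18 libraries, and its log2 fold changes in the 7 comparisons ran from -0.17 to 0.14. LAMB1 ran from -0.21 to -0.04 and ITGAE from -0.24 to 0.17. ITGA11 and LAMA4 did not pass either, and these 5 genes were the only members without a call at an adjusted p under 0.05 in all 7 comparisons. With the block, ITGA11 and LAMA4 passed in N+PD24 against Nutlin (limma adjusted p = 0.000268 and 0.0256), where the replicate numbers pair the libraries. LAMA4, a chain of vascular and mesenchymal basement membranes, had a wide spread within groups, such as 22.2, 12.4 and 10.9 CPM in DMSO. The library numbered 1 was the highest of its group in all 6 groups for LAMA2, LAMA3, LAMA4 and LAMC1 (4 of 37 members).

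The proportions of related chains differed among the groups and are given without a test. LAMB2 relative to LAMB1, per length, had a ratio of 1.01 ± 0.082 (SD, n = 3) in DMSO, 1.21 ± 0.22 in Nutlin, 1.51 ± 0.11 in PD24, 2.09 ± 0.18 in PD30, 1.83 ± 0.27 in N+PD24 and 2.84 ± 0.22 in N+PD30. The libraries of PD30, N+PD24 and N+PD30 did not overlap with those of DMSO and Nutlin. Those of PD24 did not overlap with DMSO, and their lowest ratio, 1.442, lay just under the highest in Nutlin, 1.45. ITGA5 relative to ITGA4 was 2.21 ± 0.15 in DMSO and 2.07 ± 0.16 in Nutlin. It was 8.70 ± 1.8 in PD24, 6.74 ± 1.5 in PD30, 8.22 ± 0.57 in N+PD24 and 6.88 ± 1.0 in N+PD30.

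The proteins around these chains were followed in 3 lists. Of the adhesion adaptors and kinases, which couple integrins to actin and to signalling, 24 of 26 were tested in Nutlin against DMSO, and 8 were higher and 3 lower at an adjusted p under 0.05 (edgeR). Of all genes 26.6% were higher and 28.0% lower in that comparison, 22.9% and 25.4% in PD30 against DMSO, and 24.3% and 24.7% in N+PD30 against Nutlin, and the counts of the 3 lists are read beside these shares. The focal adhesion kinase relative PTK2B rose from a mean of 4.35 to 16.2 CPM (log2 fold change 2.02, SE 0.15), and FERMT3, the kindlin of blood cells, from 0.966 to 3.54 CPM (log2 fold change 1.99, SE 0.27). In PD30 against DMSO 11 were higher and 2 lower, and LIMS2, an adaptor of the integrin-linked kinase, rose by 1.41. In N+PD30 against Nutlin 9 were higher and 6 lower, with LIMS2 at 2.05, ZYX (zyxin of focal adhesions) at 1.04 and FERMT3 at -1.80. Of the basement membrane genes and laminin partners, 14 of 16 tested were higher and none lower with Nutlin, with a list median of 0.61 beside 0.028 over all genes. The collagen IV chains COL4A3 and COL4A6 had log2 fold changes of 2.16 and 1.31, at means of 0.63 and 1.57 CPM in Nutlin. COL4A3 reached at most 0.212 CPM in DMSO and passed the filter on low counts only through the Nutlin libraries. Its call adds nothing to the count as support. In PD30 against DMSO 3 were higher and 2 lower of 15, and in N+PD30 against Nutlin 2 were higher and 3 lower of 16, among them COL4A4 at -1.43. Of the other integrin ligands, 9 of 17 were higher and none lower with Nutlin. NPNT, the ITGA8 ligand nephronectin, averaged 0.0533 CPM in DMSO, 1.38 CPM in Nutlin, 0.217 CPM in N+PD24 and 0.0995 CPM in N+PD30 (log2 fold change 4.70 with Nutlin and -3.47 in N+PD30 against Nutlin). POSTN, the ITGAV ligand periostin, had 1.73 and -2.08 in the same comparisons. NPNT in both comparisons, and POSTN in N+PD30 against Nutlin, passed the filter on low counts only through the Nutlin libraries. Those calls add nothing to the counts as support. In PD30 against DMSO 3 of 15 ligands were higher and 4 lower, and in N+PD30 against Nutlin 3 of 17 were higher and 7 lower. ICAM1, a ligand of the ITGB2 integrins, averaged 157.3 CPM in DMSO and 419.3 CPM in PD30 (log2 fold change 1.40, edgeR adjusted p = 4.39e-06), and it was higher in N+PD30 than in Nutlin by 1.56. NOV, a matricellular protein, rose by 1.30 in PD30.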

How the data were processed

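RNA-seq of 18 libraries was used. The authors mapped reads to hg19 with TopHat and Bowtie2 and counted them per gene with HTSeq 0.6.0, using the reverse-strand setting; whether the library kit keeps the strand is not given in the sources used here. The authors deposited read counts for DMSO, Nutlin, PD24, PD30 and N+PD30, in tables whose names call them variance-stabilised although the values are whole numbers. For N+PD24 the authors deposited a normalised signal, counts divided by 1 factor per library; multiplied back, 100% of its values were whole within 0.01. Tables of base means and of the authors' own comparison of Nutlin with DMSO (fold changes and p-values) were not used. The labels name another sequencer model than the study's methods.

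Groups and replicate numbers came from the labels. Genes were tested with edgeR 4.0.16 (quasi-likelihood test, TMM, filterByExpr, R 4.3.3) on the counts of the 2 groups compared. N+PD24 comparisons used limma 3.58.1 with a trend on log2(CPM + 0.1), for genes with at least 0.3 CPM in 3 libraries. Its fold changes are on that scale and understate changes of low genes. P-values were Benjamini-Hochberg adjusted over all genes tested, and both thresholds were 0.05 for the adjusted p and 1, in either direction, for the log2 fold change. Scripts were tested on simulated data. The members, gene lists and comparisons were chosen with earlier results of these data known. Of the members, 1 is not reported here. Members averaging at least 1 CPM in a group are named with values. Of each list the 3 called genes with the largest change and no overlap are named. Same-numbered libraries deviated together (r over 0.1 for every number) in N+PD24 against Nutlin (0.45 to 0.67) and in PD30 against PD24 (0.30 to 0.59). DESeq2 1.42.0, other filters, scaling, a pseudocount of 1 CPM, a replicate block and leaving out each library were tried. Of the members 23 share exon bases with another gene in GENCODE on GRCh37, 19 of them on the opposite strand, and without strand such reads cannot be told apart.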

Additional observations from a re-analysis of the deposited data

Results flagged for a closer look

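The log2 response of 5 chains to Nutlin differed with PD30 by the interaction term (edgeR over 12 libraries, both thresholds): ITGB7 by -5.38, ITGAD by -3.20, ITGAM by -2.11, ITGA2B by -1.56 and ITGAX by -1.51. Leaving out single libraries gave between 3 and 6 called members. ITGAM lost its call in 8 of the 12 such fits and ITGA2B in 6 of 12, with adjusted p values up to 0.135 and 0.0852. ITGB7 reached the level of the filter on low counts in the Nutlin libraries alone.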

How the results depend on the processing

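None of the 107 member results past the adjusted p changed sign in the alternatives run. Of the 173 that were not past it, 64 changed sign in at least 1 alternative, among them LAMB3 in Nutlin against DMSO (-0.14 to 0.44) and LAMA5 in N+PD30 against Nutlin (-0.50 to 0.13), none of them passing the adjusted p with the other sign. Without the limit on fold change (adjusted p alone) the counts of called members were 23 for Nutlin against DMSO, 14 for PD30 and 14 for PD24 against DMSO, 18 for N+PD30 and 11 for N+PD24 against Nutlin, 7 for PD30 against PD24 and 14 for N+PD30 against N+PD24. A pseudocount of 1 CPM gave 3 in N+PD24 against Nutlin and 4 in N+PD30 against N+PD24. Leaving out 1 library at a time gave 8 to 11 (Nutlin against DMSO), 4 to 7 (PD30 against DMSO), 5 to 7 (PD24 against DMSO), 8 to 11 (N+PD30 against Nutlin), 3 to 6 (N+PD24 against Nutlin), 2 to 3 (PD30 against PD24), 4 to 8 (N+PD30 against N+PD24) and 3 to 6 (interaction). The cause was not tested. edgeR on the recovered reads called 5 members in N+PD24 against Nutlin and 8 in N+PD30 against N+PD24.

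With the replicate block the counts past both thresholds were 8, 5, 7, 11, 5, 3, 6 and 5 in the same order, and with the adjusted p alone 23, 19, 19, 20, 23, 10, 11 and 9. Of all genes 20.8%, 15.4%, 12.9%, 22.3%, 12.3%, 8.08%, 13.3% and 11.2% passed both thresholds with the block, and 54.4%, 53.5%, 45.0%, 48.3%, 52.2%, 40.3%, 33.6% and 25.6% the adjusted p alone. The numbers pair the samples by the check above only in N+PD24 against Nutlin and PD30 against PD24. In N+PD24 against Nutlin 12 members were gained (ITGA1, ITGA2, ITGA10, ITGA11, ITGAV, ITGA2B, ITGAX, ITGB4, LAMA4, LAMB4, LAMC1 and LAMC3). Elsewhere samples share only a number. Depth limits the chains under 1 CPM.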
